A study of Drosophila melanogaster with 4 samples.

Results

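The comparison described here sets male flies kept in toluene vapour against unexposed male flies, and follows the genes whose transcript level lay at least 1.4-fold apart, in either direction. Of 8140 genes bright enough to compare, 169 met that limit (2.08%): 147 were higher on the toluene array (1.81%) and 22 were lower (0.27%). A gene was taken from the probe sets that the platform annotation gives 1 gene symbol, was represented by the brightest of them over all arrays, and entered the comparison if its brighter value was no lower than the median of that array. The members were thus chosen on the toluene minus control difference itself, so these differences are a description and carry no test.

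Toluene is a volatile aromatic hydrocarbon, a benzene ring with 1 methyl group, used as a solvent. The groups were flies exposed to toluene for 24 h, to benzene for 24 h, to formaldehyde for 24 h, and flies not exposed, with 1 array each, and the labels give no vapour concentration. All 4 groups were wild-type Canton-S males, 1 to 2 days old as young adults, and the exposed ones sat with food in mesh-closed vials inside an exposure bottle. Total RNA, of which 300 ng was labelled per array, came from whole flies as far as the labels say, which do not say how many flies were pooled. With 1 array per group no difference could be set against a spread between replicates, and the exposure, the pool of flies, the RNA preparation and the hybridisation cannot be told apart.

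In flies the fat body does the work of liver and adipose tissue: it stores fat, glycogen and amino acids, makes most blood proteins and clears foreign compounds. Hydrophobic compounds such as aromatic hydrocarbons are typically oxidised by cytochrome P450 enzymes and then joined to glutathione by glutathione S-transferases or to a sugar by UDP-glycosyltransferases, in fat body, midgut and Malpighian tubules. The midgut secretes the trypsins, Jonah proteases, lipases and carbohydrases of digestion. Because whole-animal RNA was measured, a lower level of a tissue's transcripts can have several sources, which cannot be told apart. Fewer of its cells and less RNA per cell are among them, and the arrays give levels relative to the RNA of all tissues.

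All levels below are the authors' deposited log2 values, on which 1 unit is a doubling, and differences are toluene minus control unless another pair is named. Array medians over non-control probe sets lay between 6.42 and 6.46, and the 95th percentile of 20 probe sets for transcripts that were not added lay between 4.64 and 4.88. No member had its dimmer value below that background. The lowest, of Lip3, was 5.30. Some members had their dimmer value below that array's median and entered by the brighter value alone. Lip3, Cpr49Ac (5.52 in the control), GstD10 (6.08), GstD2 (6.20) and GstD8 (6.34) were among them, as was Mtk on the lower side (6.41 with toluene). Over all 8140 genes the median difference was 0.0052, 4196 genes (51.5%) lay above 0, and the 5th and 95th percentiles were -0.23 and 0.30. None of the 183 array control probe sets was 1.4-fold apart on these arrays, their differences running from -0.33 to 0.30, with medians of 0.0080 for actin, 0.15 for GAPDH, 0.11 for 18S ribosomal RNA and 0.0061 for eIF-4a. The same 1.4-fold limit took in 145 of 8134 genes (1.78%) on the benzene array and 349 of 8165 (4.27%) on the formaldehyde array, each against the same control array. Set directly against the benzene array, the toluene array had 99 genes (1.22%) past the limit on the higher side and 54 (0.665%) on the lower side.

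**Figure D1:**
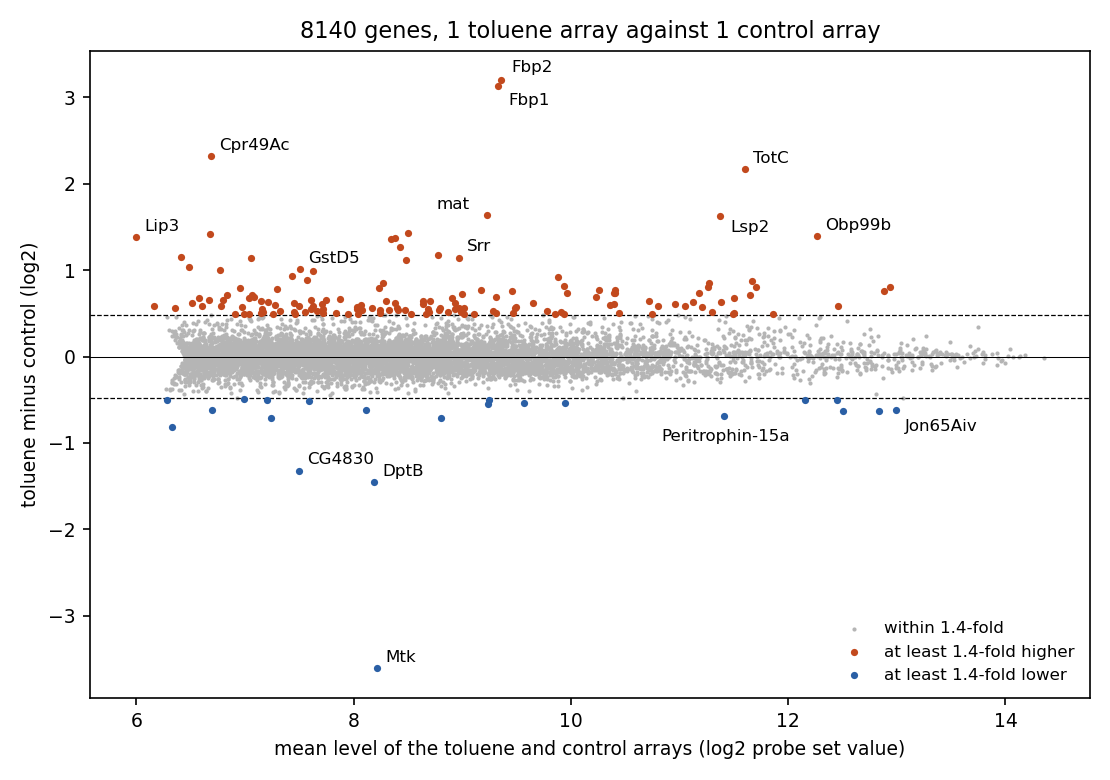
Each point is 1 of 8140 genes, plotted by its mean level on the toluene and control arrays (x, log2) and by toluene minus control (y, log2); dashed lines mark 1.4-fold. The 147 higher genes are orange and the 22 lower genes blue, with Fbp2 and Fbp1 at the top and Mtk alone at the bottom.

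Most members lay close to the limit. Among the higher genes 20 reached 2-fold (0.246% of all compared) and 127 lay between 1.4-fold and 2-fold, and their median difference was 0.61. Among the lower ones 3 reached 2-fold (0.0369%) and 19 did not, with a median of -0.62. Both directions together gave 23 genes at 2-fold (0.283%). The members nearest the limit were Pi3K68D (0.4867), Paics (0.4871) and Nepl21 (0.4872) on the higher side, and the genes that just missed it were CG6830 (0.4843), dnd (0.4840) and Hpd (0.4835). On the lower side CG4744 (-0.4891), fzo (-0.50) and CG5767 (-0.50) were the nearest members, and Ag5r (-0.4851), CG14841 (-0.4828) and Jon65Aiii (-0.4771) just missed the limit. The higher members had median levels of 8.96 on the toluene array and 8.11 on the control array, against 8.37 and 8.35 for all genes compared. From background knowledge 94 of the 169 were grouped by function or tissue, 9 of them only as genes of another named function. The grouping was made after their values were seen, and the other 75 have none here.

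Fat body proteins had the largest differences on the higher side. Fbp2, an alcohol dehydrogenase-like protein of the fat body, had a level of 10.95 on the toluene array, 8.78 on the benzene array, 10.17 on the formaldehyde array and 7.75 on the control array, which is 9.18-fold higher with toluene than in the control. Fbp1, known as the fat body receptor that takes storage proteins back up from the blood, had 10.90 with toluene, 8.76 with benzene, 10.26 with formaldehyde and 7.77 in the control (8.77-fold). Both genes were highest on the toluene array and lowest on the control array. Lsp2, a storage protein of the larval blood, had 12.19 with toluene, 10.69 with benzene, 11.58 with formaldehyde and 10.56 in the control (3.10-fold). For fit, a peptide that the fat body releases after feeding, the toluene array at 9.03 stood alone, with 7.66 for benzene, 7.32 for formaldehyde and 7.66 in the control (2.57-fold). Mtp, which loads lipid onto lipoprotein particles, was 1.53-fold higher, with 8.69 against 8.07 in the control, and apolpp, the particles' main protein, had 13.39 against 13.15 and was short of the limit. So 5 of the 6 fat body genes compared were members, the median of the list was 1.5 on the log2 scale (0.0052 over all genes), and the list was drawn up with Fbp1, Fbp2 and Lsp2 already known to be high in these data.

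Genes of fat storage, nutrient signalling and hormones were a further group of members, put together after their values were seen. Which tissue their transcripts came from was not measured. Lip3, an acid lipase known to be induced by starvation, had 6.69 with toluene, 5.50 with benzene, 5.86 with formaldehyde and 5.30 in the control, 2.61-fold higher with toluene than in the control. Lsd-1, the perilipin that coats fat droplets, had 10.79 with toluene, against 10.02 in the control (1.70-fold), with 10.46 for benzene and 9.89 for formaldehyde. For tobi, a glucosidase gene controlled by insulin and the fly's glucagon-like hormone, the levels were 11.55 with toluene, 10.42 with benzene, 11.16 with formaldehyde and 10.81 in the control. CCHa2, a peptide hormone that reports feeding to the brain, was 1.75-fold higher (10.34 against 9.53), and sug, the sugar-responsive regulator sugarbabe, 1.44-fold (9.54 against 9.02). The regucalcin-like gene smp-30 had 12.10 with toluene, 11.36 with benzene, 11.25 with formaldehyde and 11.30 in the control, highest on the toluene array. Jhe, the esterase that breaks down juvenile hormone, was 1.41-fold higher (7.71 against 7.21). The list of nutrient, starvation and insulin response genes as a whole had a median near that of all genes: 4 of 25 were at least 1.4-fold higher, none lower, 12 lay above 0 and the median was -0.00018, its sign changing with loess centring. InR, the insulin receptor (7.23 against 7.30), foxo (7.56 against 7.57) and Ilp2, an insulin-like peptide (7.04 against 7.17), are among those short of the limit. In the juvenile hormone list Jhe was the 1 member among 6 genes, with a median of -0.0010 that also changes sign with loess centring.

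**Figure D2:**
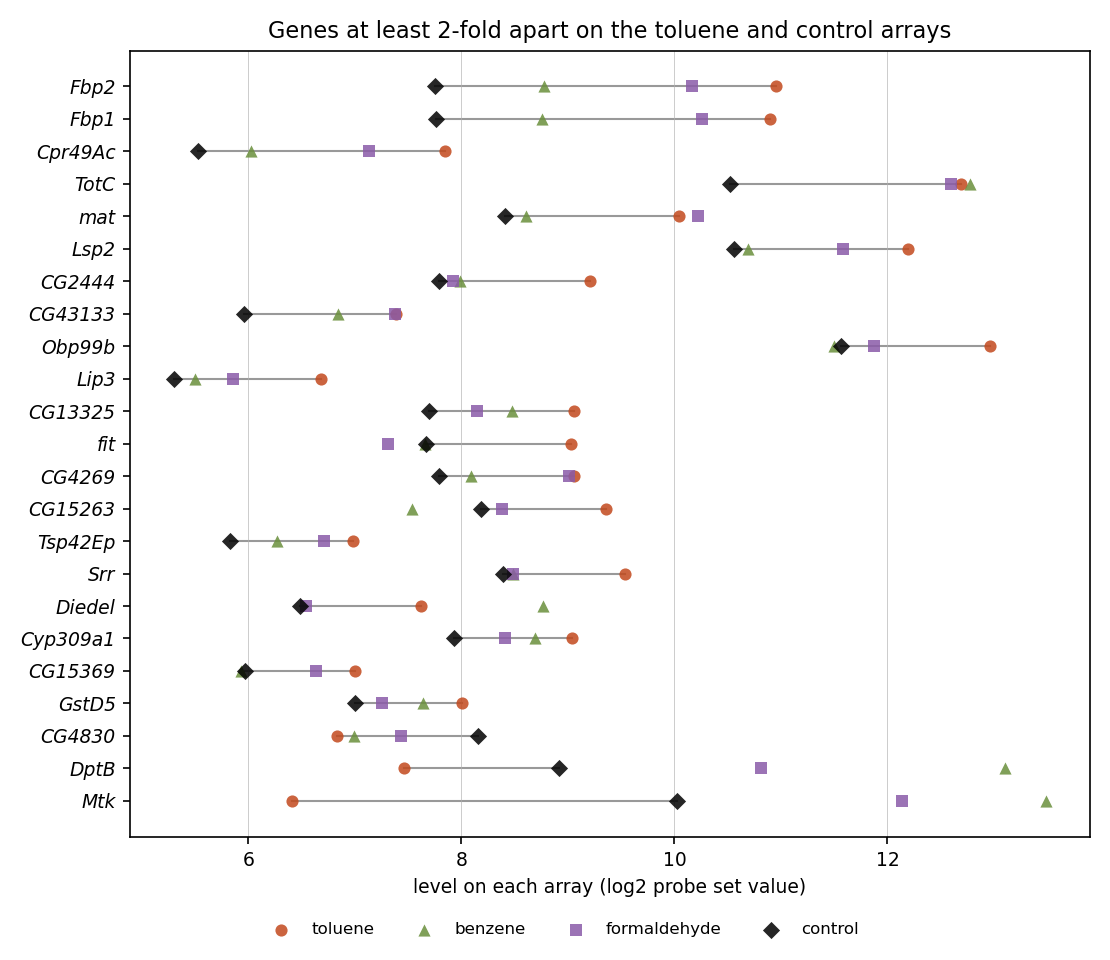
Levels (log2 probe set value) of the 23 genes at least 2-fold apart on the toluene and control arrays, with 1 marker per array and a grey line joining those 2 arrays. Fbp2, Fbp1, Lsp2, Obp99b, fit and Srr have their highest marker with toluene, and Mtk and DptB their lowest with toluene and their highest with benzene.

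Among carbohydrate enzymes the higher members were sugar-releasing ones. Amyrel, an amylase relative, had 8.12 with toluene, 7.19 with benzene, 7.60 with formaldehyde and 7.13 in the control (1.99-fold over the control), and the maltase gene Mal-A4 had 9.24 with toluene against 8.63 in the control (1.53-fold). With tobi these made 3 of 22 genes of carbohydrate metabolism, of which 21 lay above 0, with a median of 0.24. The other maltase genes compared were short of the limit and above 0, between 0.21 for Mal-A2 and 0.47 for Mal-A6, and Mal-B1 was too dim to be compared. Of the glycolytic enzymes, the hexokinase gene Hex-C was at 0.32 and its relative Hex-A at 0.03, Gapdh1 was at 0.05, Pgk at 0.04, Eno at 0.02, Pfk at 0.0012 and Pgi at -0.02.

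Enzymes of amino acid, one-carbon and purine metabolism gave 12 members, all higher with toluene, as were 147 of all 169 members. Srr, a serine racemase that interconverts L- and D-serine, had 9.54 with toluene, 8.48 with benzene, 8.49 with formaldehyde and 8.39 in the control, 2.21-fold higher with toluene than in the control. The toluene array stood apart for Srr, the others lying within 0.1 of each other. Oat, which makes glutamate semialdehyde from ornithine, was 1.61-fold higher (9.66 against 8.97), Gcat, of threonine and glycine breakdown, 1.54-fold (7.76 against 7.14), and AsnS, asparagine synthetase, 1.51-fold (7.58 against 6.98). Ass and arg, argininosuccinate synthase and arginase, were 1.46-fold and 1.45-fold higher, the D-amino acid oxidase gene Daao2 1.5-fold, and Tmlh, the first enzyme of carnitine synthesis, 1.45-fold. In a list of amino acid enzymes drawn up after these values were seen, 8 of 35 genes were higher members and 0 lower ones, 32 lay above 0 and the median was 0.22. Among them the tyrosine-breakdown genes Hpd (0.48), Tat (0.38), hgo (0.29) and Faa (0.22) were each above 0 and short of the limit, while Gdh, glutamate dehydrogenase, was at -0.03.

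Purine synthesis and the folate cycle that feeds it gave Gart, with 9.21 with toluene, 8.29 with benzene, 8.77 with formaldehyde and 8.66 in the control. That is 1.46-fold higher with toluene than in the control; Gart carries out 3 steps of purine synthesis. Paics, of later steps, had 11.73 with toluene, 11.29 with benzene, 11.64 with formaldehyde and 11.25 in the control. Mthfs, which returns a folate to the cycle, was 1.56-fold higher (9.02 against 8.38), and pug, the cytosolic folate enzyme that uses formate, 1.41-fold (10.70 against 10.20). Prat2, of the first committed step, was at 0.46 and Pfas at 0.26, whereas the other copy of the first enzyme, Prat, was at 0.02 and the guanine-branch gene bur at -0.04. In all 4 of 9 purine genes were members, 8 lay above 0 and the median was 0.46; this list too was made after the values were seen. The alcohol, aldehyde and one-carbon list had 4 members among 15 genes, with 14 above 0 and a median of 0.26. Its members Mthfs, Gart and pug are also counted in the purine list. The other was CG10621, of the homocysteine methyltransferase family, at 0.74. Fdh, the formaldehyde dehydrogenase, was at 0.05.

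The 16 detoxification members were likewise all higher with toluene, as were 147 of all 169 members. Their differences ran from 0.49, just past the limit, to 1.11. Among cytochrome P450 genes 6 of 57 were members, 46 lay above 0 and the median was 0.16. Cyp309a1 had 9.04 with toluene, 8.69 with benzene, 8.41 with formaldehyde and 7.93 in the control (2.16-fold over the control). Cyp6d4 (1.49-fold), Cyp9b2 (1.48-fold), Cyp6a23 (1.44-fold), Cyp4d1 (1.41-fold) and Cyp12c1 (a difference of 0.49) followed. Fmo-1, a flavin monooxygenase, which is another kind of oxidising enzyme, was 1.45-fold higher (8.35 against 7.81). Sodh1, a sorbitol dehydrogenase and not counted in this class, had 12.75 with toluene, 11.93 with benzene, 12.32 with formaldehyde and 12.17 in the control.

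Glutathione S-transferases gave 7 members of 32 genes, with 27 above 0 and a median of 0.24. GstD5 had 8.01 with toluene, 7.64 with benzene, 7.26 with formaldehyde and 7.0 in the control, 2.01-fold higher with toluene than in the control. GstD7 had 7.19 with toluene, 6.69 with benzene, 6.38 with formaldehyde and 6.48 in the control, and GstD8 had 7.0, 6.69, 6.73 and 6.34 on the same arrays. GstD2 and GstD10 were 1.54-fold and 1.48-fold higher, GstE7 1.48-fold and GstE1 1.48-fold. Of the other D class genes, GstD1 (12.82 against 12.57) and GstD9 (9.76 against 9.50) were short of the limit. Ugt37A3 had 7.34 with toluene, 6.85 with benzene, 6.82 with formaldehyde and 6.55 in the control, and its neighbour Ugt37A2 had 7.42, 7.13, 6.89 and 6.73. These were the 2 members among 18 UDP-glycosyltransferase genes, whose median was 0.09. Glutathione and antioxidant enzymes held no member among 12 genes (median 0.05; the largest difference was 0.33, for Men), nor did efflux and transport genes among 14 (median 0.07; Oatp33Ea, 0.29).

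**Figure D3:**
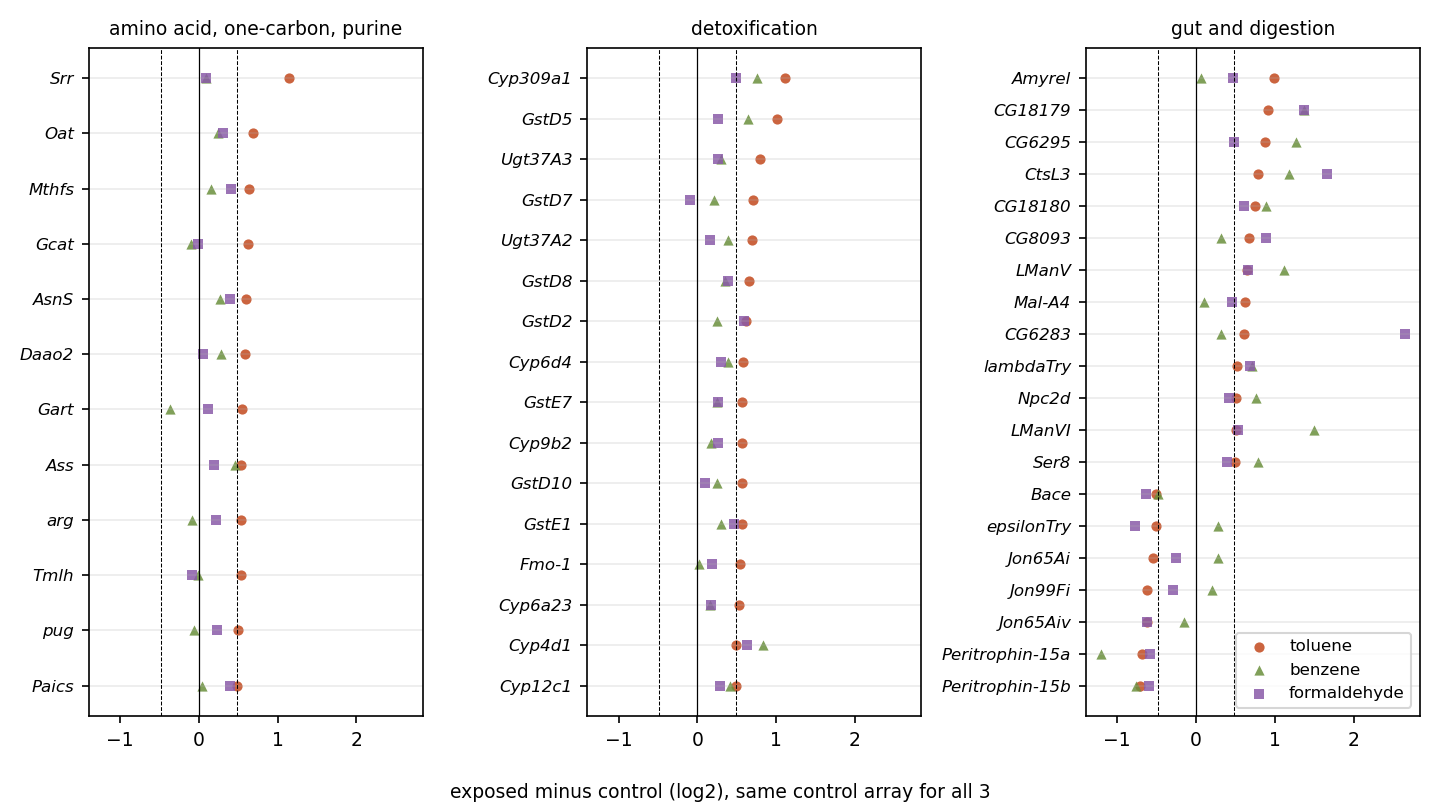
Exposed minus control (log2) for the members of 3 classes, with 1 row per gene and 1 marker per exposure; all 3 exposures share the control array, and dashed lines mark 1.4-fold. The members were chosen on the orange toluene markers, which therefore lie at or beyond the dashed lines, while benzene and formaldehyde markers lie on either side.

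Set beside the other exposures, these classes differed in their values. For the 12 amino acid, one-carbon and purine genes the median difference from the control was 0.57 with toluene, 0.07 with benzene and 0.21 with formaldehyde. For the 16 detoxification genes it was 0.57, 0.30 and 0.27 in the same order, for the 12 fat body, nutrition and hormone genes 0.81, 0.12 and 0.45, and for the 20 gut genes 0.51, 0.32 and 0.47. The 12 cuticle, odorant-binding and other secreted protein genes had 0.65, 0.31 and 0.29, and the 13 immunity and stress genes 0.59, 0.50 and 1.32, the formaldehyde median being the highest in this last class. Because the genes were picked on the toluene difference and all of these share 1 control array, nothing is read from the order of these medians.

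Gut genes went both ways, 13 of 20 higher and 7 lower. Higher were the neighbouring serine protease genes CG18179, with 10.34 with toluene, 10.79 with benzene, 10.80 with formaldehyde and 9.42 in the control, and CG18180, with 13.26, 13.39, 13.12 and 12.51 on the same arrays. The lipase gene CG6295 had 12.11 with toluene, 12.51 with benzene, 11.71 with formaldehyde and 11.23 in the control. Another lipase gene, CG6283, had 8.94 with toluene, 8.66 with benzene, 10.98 with formaldehyde and 8.33 in the control. For these 4 genes the toluene array lay above the control array without being the highest of all arrays. CtsL3, of the cathepsin L family, was 1.72-fold higher (7.68 against 6.90), the lipase gene CG8093 1.60-fold, LManV and LManVI, lysosomal mannosidases, 1.56-fold and 1.42-fold, the trypsin-type genes lambdaTry and Ser8 1.43-fold and 1.42-fold, and the sterol-binding Npc2d 1.42-fold. All the genes from CtsL3 to Npc2d, too, were higher on the benzene or the formaldehyde array than on the toluene array. LManVI had 8.96 with benzene against 7.97 with toluene, and CtsL3 had 8.56 with formaldehyde against 7.68 with toluene. In the lists, lipases had 4 of 18 genes at least 1.4-fold higher (Lip3 included), none lower and a median of 0.16. Lysozymes and mannosidases had 2 of 6 (median 0.43), with LysP at -0.37, and the Npc2 and Niemann-Pick list had 1 of 8 (median 0.26).

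Lower with toluene were Jonah and trypsin genes and genes of the peritrophic lining. Jon65Aiv had 12.69 with toluene, 13.15 with benzene, 12.69 with formaldehyde and 13.31 in the control (1.54-fold lower than the control). Jon99Fi had 7.81 with toluene, 8.62 with benzene, 8.13 with formaldehyde and 8.42 in the control, and Jon65Ai had 9.68, 10.50, 9.97 and 10.22. For epsilonTry the levels were 11.90 with toluene, 12.68 with benzene, 11.63 with formaldehyde and 12.41 in the control. The gut protease list held 2 higher and 4 lower members among 23 genes, 11 lay above 0 and the median was -0.06. The trypsin and Jonah genes alphaTry (13.20 against 13.26), betaTry (13.59 against 13.65) and Jon25Biii (13.14 against 13.09) lay near 0. Peritrophin-15a and Peritrophin-15b, chitin-binding proteins of the membrane that lines the gut, were lower by 1.61-fold and 1.64-fold. Peritrophin-15a had 11.06 with toluene, 10.55 with benzene, 11.17 with formaldehyde and 11.75 in the control. Peritrophin-15b had 6.88, 6.83, 7.0 and 7.60 on the same arrays. Both genes lay below the control on all exposed arrays and were lowest on the benzene array. They were the only members among 22 genes of the chitin, peritrophin and mucin list, in which 16 lay above 0 (median 0.13). Bace, an aspartic protease gene, had 12.20 with toluene, 12.21 with benzene, 12.07 with formaldehyde and 12.70 in the control, so that all exposed arrays lay below the control.

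Immune genes held both the lowest member and several higher ones. Mtk, the antimicrobial peptide metchnikowin, had 6.41 with toluene, 13.49 with benzene, 12.14 with formaldehyde and 10.02 in the control (12.2-fold lower with toluene than in the control). DptB, a diptericin, had 7.46 with toluene, 13.10 with benzene, 10.82 with formaldehyde and 8.92 in the control (2.74-fold lower). The toluene array was the lowest of all arrays for both, and the control array stood well above background for both. They were the only members among 16 antimicrobial peptide genes, whose median was -0.07 and of which 6 lay above 0. The others lay between -0.36 for Listericin and 0.30 for BomT3. Among them the antifungal drosomycin gene Drs was at -0.27 and the defensin gene Def at -0.06. Probe sets to which the annotation gives no gene or several genes were outside this list. Peptidoglycan recognition genes had no member among 8 (median 0.09, led by PGRP-SC2 at 0.43), and neither had Imd and Toll signalling genes among 19 (median 0.12, led by imd at 0.29), of which 17 lay above 0.

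Stress and tissue-defence genes on the higher side were led by TotC, a Turandot stress peptide, with 12.69 with toluene, 12.78 with benzene, 12.59 with formaldehyde and 10.52 in the control. It is 4.49-fold higher with toluene than in the control, and the control array alone stood low. Diedel, a secreted regulator of immunity, had 7.62 with toluene, 8.77 with benzene, 6.54 with formaldehyde and 6.49 in the control (2.20-fold). The virus-induced gene vir-1 was 1.48-fold higher (9.30 against 8.74), which made 3 of 8 genes in the Turandot, JAK/STAT and Diedel list (median 0.27). TotB, TotE, TotF and TotZ were too dim to be compared. NimC4, a phagocytic receptor for dying cells, had 8.70 with toluene, 8.26 with benzene, 9.19 with formaldehyde and 7.85 in the control, and NimB3, a secreted relative, had 8.68, 8.67, 9.53 and 8.14. Srg1, named for its control by the Sting pathway, was 1.58-fold higher (8.20 against 7.54), and the Kunitz-domain genes CG16704 and CG16713 were 1.59-fold and 1.56-fold higher. Of the caspase genes, Strica was higher (6.46 with toluene against 5.88 in the control) and Damm lower (7.33 against 7.85), with 9.17 for Damm on the formaldehyde array. They were 2 of 4 caspase genes compared (median 0.13), in a list made after the values were seen. MtnC, a metallothionein that binds metals, was 1.5-fold higher and the single member among 12 metal-handling genes (median 0.12). No heat shock or chaperone gene was a member among 14, the largest difference being -0.23 for Hsp60B.

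Cuticle, odorant-binding and other secreted proteins gave 12 members, all higher, as were 147 of all 169 members. Cpr49Ac, a chitin-binding cuticle protein, had 7.84 with toluene, 6.03 with benzene, 7.14 with formaldehyde and 5.52 in the control (4.99-fold over the control), and Cpr64Aa was 1.41-fold higher. They were 2 of 35 cuticle genes compared, of 105 on the array, with a median of 0.09 that turned negative with no filter on dim genes. Obp99b, an odorant-binding protein, had 12.96 with toluene, 11.50 with benzene, 11.88 with formaldehyde and 11.57 in the control (2.63-fold). Obp83cd (1.64-fold) and its neighbour Obp83ef (1.5-fold) were the other members among 28 odorant-binding protein genes, whose median was 0.03. The neprilysin-like genes Nepl15 (1.85-fold), Nepl14 (1.56-fold), Nepl6 (1.49-fold) and Nepl21 (0.49 on the log2 scale), relatives of peptide-cleaving metalloproteases, were 4 of 15 in a list made after the values were seen (median 0.16). Ance-4, of the angiotensin-converting enzyme family, was 1.47-fold higher and yellow-f2, of melanin synthesis, 1.57-fold. Last, mat had 10.04 with toluene, 8.61 with benzene, 10.22 with formaldehyde and 8.41 in the control.

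Members outside these classes included the Gag-derived genes Arc2, with 7.27 with toluene, 6.61 with benzene, 6.66 with formaldehyde and 6.27 in the control, and Arc1, with 11.70, 10.88, 11.19 and 11.07. Their products resemble retroviral capsids and Arc1 is known from neurons. A second probe set gave 0.37 for Arc1, short of the limit. The tetraspanin gene Tsp42Ep was 2.22-fold higher (6.98 against 5.83), the retinol dehydrogenase gene rdhB 1.74-fold, the photoreceptor dehydrogenase gene Pdh 1.41-fold and the monocarboxylate transporter gene Mct1 1.43-fold. Pi3K68D, at 0.49, was -0.01 at its other probe set. Among genes with no class here, the largest were CG2444 (9.21 with toluene, 7.98 with benzene, 7.93 with formaldehyde, 7.79 in the control), CG43133 (7.38, 6.84, 7.37 and 5.96), CG13325 (9.06, 8.48, 8.15 and 7.69), CG4269 (9.06, 8.09, 9.01 and 7.79), CG15263 (9.36, 7.53, 8.38 and 8.19) and CG15369 (7.0, 5.93, 6.63 and 5.97). The toluene array was the highest for each of these 6, for CG43133 and CG4269 by under 0.1 over formaldehyde. CG34166 had 13.34 with toluene, 12.28 with benzene, 12.86 with formaldehyde and 12.54 in the control, again highest with toluene. CG4830, the third gene lower by at least 2-fold, had 6.84 with toluene, 6.99 with benzene, 7.44 with formaldehyde and 8.16 in the control. CG32751 followed at -0.82, then the neighbours CG15043 (-0.71) and CG15044 (-0.62), CG16826 (-0.63) and whe (-0.63). On the formaldehyde array CG15043 was above the control, at 10.96 against 9.16.

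**Figure D4:**
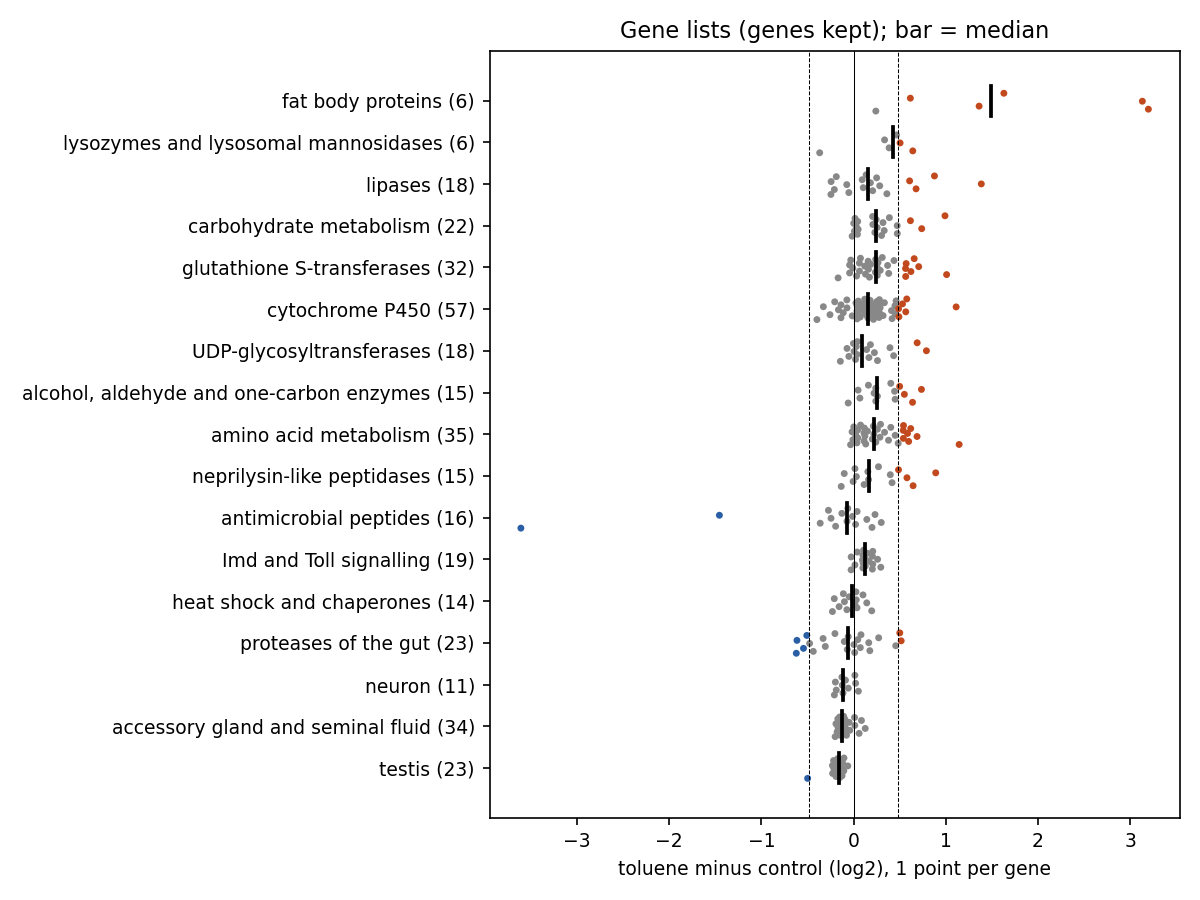
Toluene minus control (log2) for every gene compared in 17 gene lists, with 1 point per gene, a black bar at the list's median and dashed lines at 1.4-fold; the number of genes compared stands in brackets. Fat body proteins lie farthest right, the antimicrobial list has Mtk and DptB far left, and all 23 testis genes lie left of 0.

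Markers of other tissues were read in the same way. All 23 testis genes compared lay below 0, with a median of -0.16, although the 1 member was fzo, which fuses mitochondria in spermatids (6.96 with toluene, 6.76 with benzene, 7.08 with formaldehyde and 7.46 in the control). Of accessory gland and seminal fluid genes 29 of 34 lay below 0 (median -0.12), none past the limit; antr, at -0.20, was lowest. Hemocyte genes had 12 of 14 above 0 (median 0.19), with NimC4 as the member, eater at 0.38 and the defining marker Hml at -0.04. Neuron genes had 8 of 11 below 0 (median -0.12), with elav at 0.01. Photoreceptor (median 0.02, 13 genes), muscle (0.0073, 17 genes) and Malpighian tubule genes (0.02, 12 genes) held no member. Yp3 alone of the ovary and yolk genes was compared (0.09), Yp1 and Yp2 being at 3.60 and 4.32 on the toluene array, below its background. The part of these tissue shifts in the members' differences was not tested.

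Some members were close neighbours on the chromosomes. Among the 3 protein-coding genes on either side in RefSeq's order, 33 of the 147 higher members (22.4%) had another higher member, against 444 of the 7926 other genes that could be placed in that order (5.6%). For the 22 lower members, 6 (27.3%) had another lower member nearby, against 57 of 7926 (0.719%). Those 6 were only 3 pairs, with each gene counted for the other. The pairs were Peritrophin-15a and Peritrophin-15b, Jon65Aiv and Jon65Ai, and CG15043 and CG15044. The higher ones formed 14 groups, 12 of them pairs, such as LManV and LManVI, Arc1 and Arc2, Obp83cd and Obp83ef, Ugt37A2 and Ugt37A3, Nepl14 and Nepl15, CG18179 and CG18180, CG31104 and CG31300, and MtnC and Tmlh. The longest were the GstD genes on 3R and the run of CG8997, CG7916, CG7953 and CG7968 on 2L. In that run all 4 genes were members, with differences of 0.71 for CG8997, 0.73 for CG7916, 0.81 for CG7953 and 0.93 for CG7968. The GstD genes held both members and genes short of the limit: GstD10 was at 0.56, GstD9 at 0.27, GstD1 at 0.26, GstD2 at 0.62, GstD3 at 0.16, GstD5 at 1.01, GstD7 at 0.71, GstD8 at 0.66 and GstD11 at 0.29, with GstD4 and GstD6 too dim. In the Jon65A run Jon65Aiv (-0.62), Jon65Aiii (-0.48) and Jon65Ai (-0.54) were low and Jon65Aii was at 0.0039. Many of these neighbours are copies of one another, and whether their probe sets pick up each other's transcripts was not tested.

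**Figure D5:**
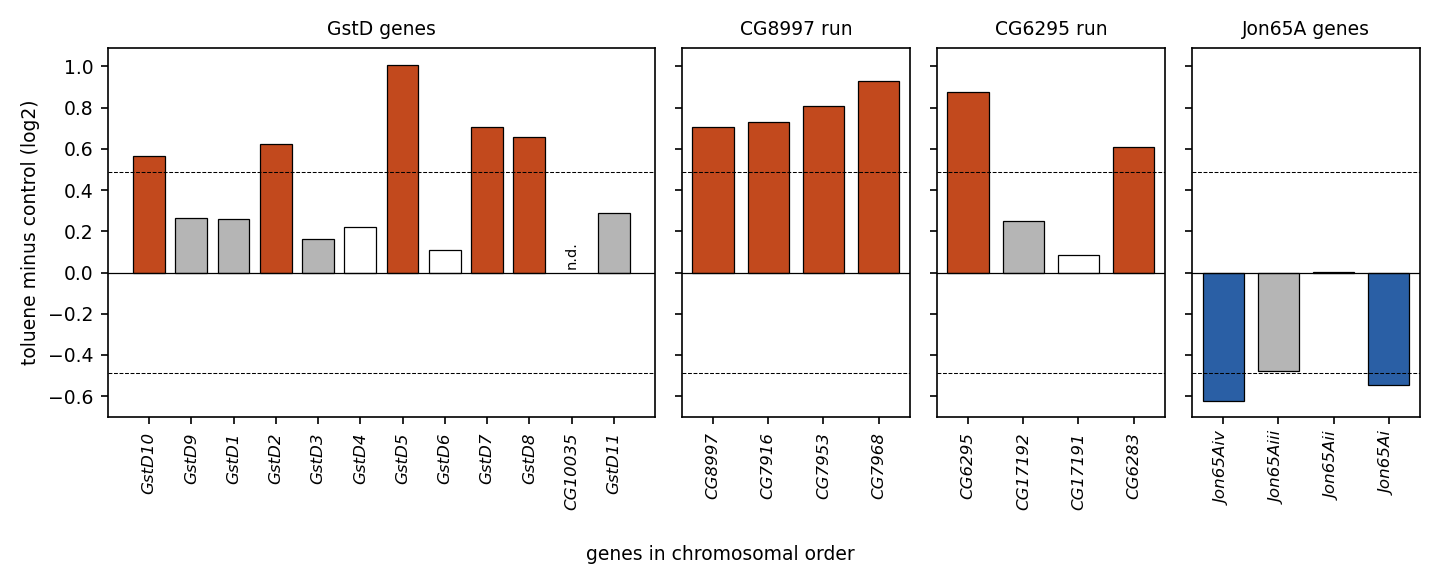
Toluene minus control (log2) for genes in chromosomal order along 4 runs of neighbouring genes; orange and blue bars are members, grey bars genes inside the dashed 1.4-fold lines, white bars genes too dim to be compared, and n.d. a gene with no probe set of its own. All 4 genes of the CG8997 run are members, while the GstD run holds members, non-members and dim genes.

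Other lists held no member: triglyceride and fatty acid synthesis (12 genes, median 0.07, largest mdy at 0.39), DNA damage response (6, -0.07, Sid 0.32), circadian clock (9, 0.01, cry 0.17), cytosolic ribosomal proteins (41, 0.02, RpL22-like -0.28), the mitochondrial respiratory chain (58, 0.03, ND-51L1 -0.31) and serpins (23, 0.06, Spn88Eb 0.26). Carboxylesterases had Jhe as the 1 member of 13 genes, with a median of 0.27. The sign of the DNA damage, clock, ribosomal, heat shock and cuticle medians changed under at least 1 other processing.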

How the data were processed

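The values are on the log2 scale, as the authors deposited them for 4 Affymetrix arrays in a single table. Affymetrix Expression Console 1.1, RMA and MAS5 appear in the submitters' processing notes without roles, so the summary and scaling method is not stated. The arrays' medians are nearly equal, so an overall difference in RNA amount would not show. RNA was labelled with a 3' IVT kit, per the labels' protocols.

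Of 18952 probe sets, 183 were array controls, 13646 had 1 symbol in the platform annotation, 402 several and 4721 none. They gave 11981 genes, 8140 after the filter. Gene order came from RefSeq's Release 6 table, which matched all 169 members. Values were used as deposited, with Python 3.11.15, numpy 2.4.6 and pandas 2.3.3. With 1 array per group there was no test, only size limits of 1.4-fold and 2-fold; the number of arrays limits the precision. The counting was tested on simulated data.

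The members, the 38 gene lists and the processing were chosen with earlier results of these data known, and 4 more lists after the values were seen. Named are all genes past 2-fold, the 10 lowest, up to 4 members of each list, the 3 on each side of the limits, and further members chosen after their values were seen. No gene or promoter sequence was used here. Alternatives were another filter, averaged probe sets, quantile scaling, loess centring (span 0.3, statsmodels 0.14.6), fewer probe set types and a 1.5-fold limit.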

Additional observations from a re-analysis of the deposited data

Results flagged for a closer look

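Probe sets to which the platform annotation gives no gene were outside the comparison, and some of them passed the same limits. Of 736 such probe sets bright enough, 14 lay above the control array by 1.4-fold or more and 4 lay below it by as much. Of the 8140 genes compared, 147 (1.81%) and 22 (0.27%) did so. Their differences ran from -2.14 (5.79 with toluene, 13.15 with benzene, 11.24 with formaldehyde and 7.92 in the control) to 2.69 (7.34 with toluene, 5.45 with benzene, 6.87 with formaldehyde and 4.65 in the control, the last being below that array's background). By 2-fold, the numbers were 7 above and 3 below, against 20 (0.246%) and 3 (0.0369%) of the 8140 genes. Each of the 3 probe sets below had its highest level on the benzene array and its lowest on the toluene array, as Mtk and DptB had.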

How the results depend on the processing

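With the filter raised to the 75th percentile, 89 genes were at least 1.4-fold higher, 14 lower and 13 at least 2-fold higher with toluene, since fewer genes were compared. With no filter 34 were at least 1.4-fold lower, and with a limit of 1.5-fold 83 were higher and 12 lower. Quantile scaling gave 129 higher and 24 lower, with 150 of the 169 members called; loess centring kept 166, averaged probe sets 167, and leaving out probe sets that end in _s_at or _x_at 163. Of 114 genes followed one by one, 108 of them members, none changed direction under an alternative that kept it; with averaged probe sets Pi3K68D came to 0.24. The median of the nutrient list came to 0.18, and that of the metal list to 0.30, with the stricter filter. Signs of list medians near 0 are not stable: nutrient, juvenile hormone, heat shock, ribosomal, clock, cuticle and DNA damage lists changed sign in at least 1 alternative. No paired analysis was possible because each group has 1 array. The single array per group limits every value, and no difference could be set against replicate error.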

Other observations

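Probe sets that the annotation assigns to several genes were also outside the comparison. Of 279 bright enough, 11 were at least 1.4-fold higher with toluene than in the control and 2 lower, with differences from -0.67 to 1.74. Of the 8140 genes compared, 147 (1.81%) were higher and 22 (0.27%) lower by as much. By chromosome arm, the share of genes at least 1.4-fold higher was 2.08% on 2L, 2.02% on 2R, 1.34% on 3L, 2.35% on 3R and 1.03% on X, and the share lower was 0.324%, 0.357%, 0.128%, 0.15% and 0.477% in the same order. These shares rest on 1 array per group and were not tested.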
